A study of Canis lupus familiaris with 14 samples.

Results

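Mitosis and G2/M genes act between the end of DNA replication and the separation of the daughter cells. A list of 54 such genes was followed in the tumor and the bone of dogs with osteosarcoma, a malignant tumor of bone. The symbols were matched to Ensembl gene identifiers through the gene tables that accompany the study, and 40 of the 54 genes had a match. The other 14 (HMGB2, CKS2, CKS1B, TMPO, AURKB, ANP32E, TUBB4B, KIF20B, RANGAP1, PSRC1, LBR, CKAP5, G2E3 and GAS2L3) had none and were not analysed here. Genomic coordinates and sequences were not used here.

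Polyadenylated RNA was sequenced from 14 libraries, 1 of the osteosarcoma and 1 of the second phalanx of each of 7 dogs, A to G. All limbs were amputated before any chemotherapy. Dogs A and F were Golden Retrievers, B was a Rottweiler, C a Doberman Pinscher, D and G were Greyhounds, and the breed of E was recorded as Great Pyranees. The tumor lay in the radius in A, C, E and F, in the femur in B, in the humerus in D and in the tibia in G. The phalanx came from the same leg, at least a joint away from the tumor, and served as normal bone. Bone and tumor were prepared under separate protocols, and the study gives the bone protocol only by citing an earlier publication. Tissue and preparation cannot be told apart. RNA of the tumor of dog A and of the bone of dog B was rated the least intact in the study. Each tissue of each dog has a single library, so the spread between dogs holds biological and technical variation together.

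Entry into mitosis is driven by the kinase CDK1 with its B cyclins. The chromosomes are then compacted by condensin and held by kinetochores on a spindle of microtubules, while a checkpoint delays the anaphase-promoting complex (APC/C) until every kinetochore is attached. Transcripts of these genes accumulate in G2 and M phase, so their level in a tissue is widely used as a measure of how many cells divide. In bulk RNA, more dividing cells and more transcript per dividing cell cannot be told apart.

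Total counts ranged from 22564544 to 34479429 in bone and from 18650945 to 32887213 in tumor (n = 7 each). Levels are given as normalized counts, which are read counts divided by the library's size factor. They are compared between libraries and not between genes, because transcript lengths were not used. Fold changes are log2 values of tumor relative to bone with the standard error (SE) from edgeR's quasi-likelihood test, fitted with dog and tissue, and a gene was called at a Benjamini-Hochberg false discovery rate (FDR) under 0.05 over 27655 genes.

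The mitosis and G2/M genes with an identifier were higher in tumor than in bone in every class of function. The classes hold only these matched genes, and the class of other genes rests on 1 of its 5 listed. Of the 40 genes, 38 were called higher and 0 lower in the edgeR test, against 1.76% of all genes tested called higher. Their log2 fold changes ran from 1.08 to 3.31 and had a median of 2.52, beside -0.05 over all genes. The identifiers with a symbol are mainly genes that the study called on these same libraries, and 20.3% of the 2292 such genes were called higher. The count of 38 is therefore a description and not independent evidence of a direction. With the DESeq2 Wald test all 40 were called higher, against 9.60% of all genes with an adjusted p. The study also used DESeq2 with dog and tissue on these libraries, so the symbol matching largely fixed this count of 40 in advance. With the study's further limits on level (base mean 10) and size (2-fold), edgeR called 38 of the 40 and 1.35% of all genes higher. With 1 dog left out at a time the count was between 33 and 38, and 33 was reached without dog B, without dog C or without dog G.

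In 34 of the 40 genes the tumor exceeded the bone of the same dog in all 7 dogs, against 4.65% of all genes. In 33 genes the lowest of the 7 tumors lay above the highest of the 7 bones, against 1.49% of all genes and 15.1% of those with a symbol. The genes that overlapped were TTK, NUSAP1, CKAP2, HMMR, KIF11, JPT1 and PIMREG.

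**Figure D1:**
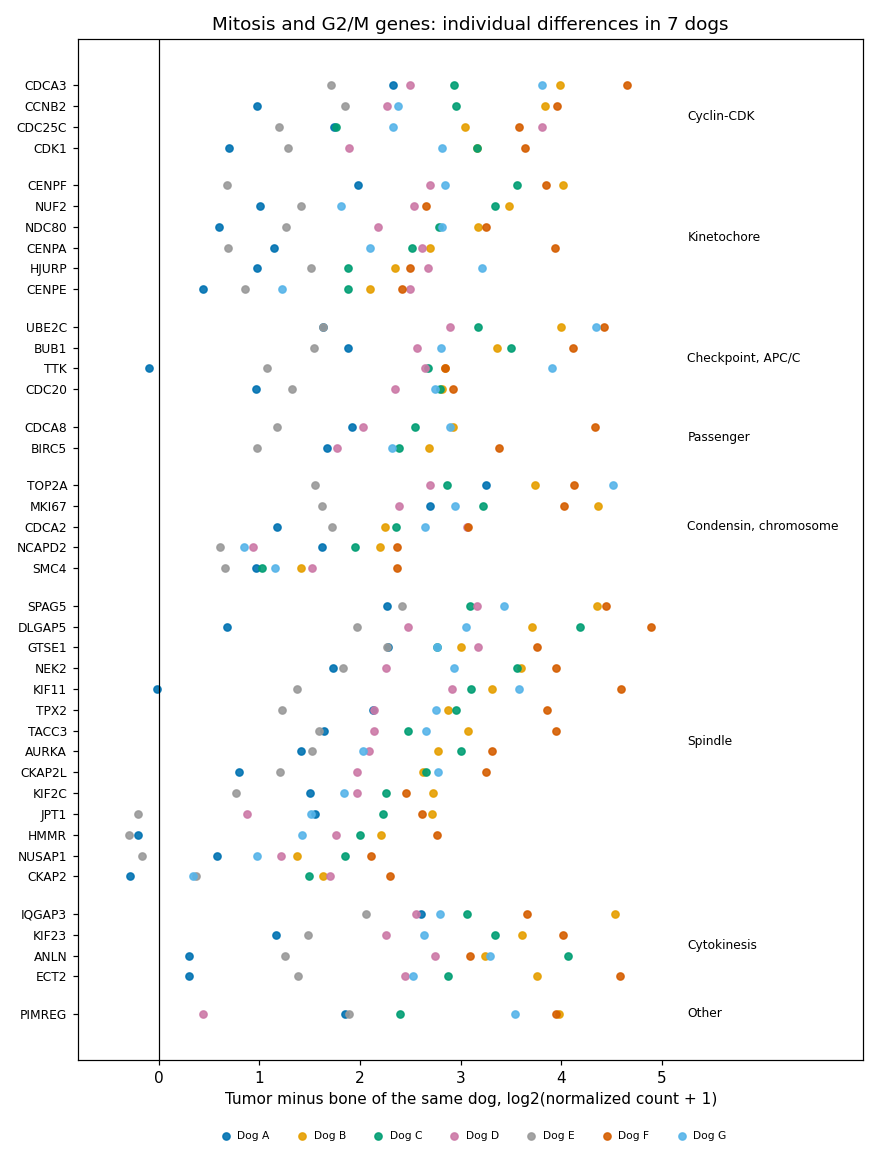
Difference between the tumor and the bone of each dog on the scale log2(normalized count + 1) for the 40 genes, grouped by function, with 1 point per dog. The points of dogs A and E lie mostly to the left and those of dog F mostly to the right, and the points at or left of 0 belong to dogs A and E.

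The genes of the cyclin-CDK class had a median log2 fold change of 2.58, and 4 of 4 were called higher. CDCA3 (ENSCAFG00000014650), an adaptor for the degradation of the CDK1 inhibitor WEE1, had 56.1 to 232 normalized counts in bone (median 110) and 497 to 2808 in tumor (median 1159). The lowest tumor, that of dog D, still had more than the highest bone, that of dog A. Its log2 fold change was the largest of the class, 3.13 (SE 0.37, FDR = 0.0033 in edgeR). CDK1 (ENSCAFG00000012904), the kinase itself, had the smallest, with 81.4 to 174 normalized counts in bone (median 150) and 270 in the tumor of dog A to 2172 in that of dog F (median 591). The groups did not overlap, and the log2 fold change was 2.40 (SE 0.38, FDR = 0.00906 in edgeR). Cyclin B2 (CCNB2) rose by 2.61 and the CDK1-activating phosphatase CDC25C by 2.55 on the log2 scale. CDC25C had the fewest reads of all 40 genes, with 6.66 to 31.0 normalized counts in bone.

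All 6 kinetochore genes were called higher, with a median log2 fold change of 2.29. CENPF (ENSCAFG00000012593), a large protein of the outer kinetochore, had 145 to 372 normalized counts in bone (median 304) and 492 to 5037 in tumor (median 1973), a log2 fold change of 2.83 (SE 0.40, FDR = 0.00614 in edgeR). Tumor F was the highest and tumor E the lowest, and the tumor of dog E was less than 2-fold above its own bone. CENPE (ENSCAFG00000010836), the kinesin that carries chromosomes to the spindle equator, changed least, with 197 to 275 normalized counts in bone (median 211) and 281 to 1477 in tumor (median 779). The lowest tumor, that of dog A, stood just above the highest bone, and the log2 fold change was 1.64 (SE 0.29, FDR = 0.0135 in edgeR). The microtubule-binding subunits NDC80 and NUF2 rose by 2.32 and 2.33. The centromeric histone CENPA rose by 2.26 and HJURP, the chaperone that deposits it, by 2.16.

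The 4 genes of the spindle checkpoint and the APC/C were called higher, with a median log2 fold change of 2.59. UBE2C (ENSCAFG00000009745), the ubiquitin-conjugating enzyme of the APC/C, had 37.2 to 178 normalized counts in bone (median 84.4) and 367 to 1761 in tumor (median 773), a log2 fold change of 3.17 (SE 0.42, FDR = 0.00474 in edgeR). CDC20 (ENSCAFG00000005259), the activator of the APC/C on which the checkpoint acts, had 168 to 520 in bone (median 321) and 808 to 2455 in tumor (median 1701), a log2 fold change of 2.28 (SE 0.29, FDR = 0.00381 in edgeR). Neither gene overlapped between the tissues, and bone A was the highest bone and bone G the lowest for both. The checkpoint kinase BUB1 rose by 2.83. TTK, the kinase upstream of it, rose by 2.34 and overlapped in dog A.

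Of the chromosomal passenger complex, which corrects wrong attachments and steers cytokinesis, both genes with an identifier were called higher, with a median log2 fold change of 2.35. CDCA8 (ENSCAFG00000003278, borealin) had 48.8 to 98.6 normalized counts in bone (median 63.0) and 169 to 1007 in tumor (median 376), a log2 fold change of 2.54 (SE 0.36, FDR = 0.00614 in edgeR). Apart from tumors F and E, its tumor values were close together, between 288 and 387. BIRC5 (ENSCAFG00000048539, survivin) had 126 to 224 in bone (median 185) and 367 to 2109 in tumor (median 716), a log2 fold change of 2.17 (SE 0.28, FDR = 0.0047 in edgeR). Tumor F was again the highest and tumor E the lowest.

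Of the condensin and chromosome genes 5 of 5 were called higher, with a median log2 fold change of 2.36. TOP2A (ENSCAFG00000016090), the topoisomerase that untangles sister DNA, had 259 to 824 normalized counts in bone (median 637) and 1916 to 12267 in tumor (median 4804), a log2 fold change of 3.25 (SE 0.35, FDR = 0.00281 in edgeR). The tumor of dog A had the second highest value, 7884, which was unlike its place in most other genes. MKI67, whose product coats mitotic chromosomes and is the Ki-67 proliferation marker, rose by 3.02, and CDCA2, which directs a phosphatase to chromatin, by 2.36. The condensin subunits SMC4 and NCAPD2 had the smallest fold changes of the class. SMC4 (ENSCAFG00000014295) had 1424 to 2249 in bone (median 2004) and 2513 to 10610 in tumor (median 4241), a log2 fold change of 1.29 (SE 0.21, FDR = 0.0105 in edgeR). NCAPD2 rose by 1.50. Neither subunit overlapped between the tissues, and both had narrow bone groups, with the highest bone 1.58-fold and 1.38-fold above the lowest.

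The spindle genes were the largest class, and 12 of 14 were called higher, with a median log2 fold change of 2.40. SPAG5 (ENSCAFG00000018724, astrin), which holds kinetochores to microtubules, had 49.8 to 119 normalized counts in bone (median 86.5) and 430 to 2618 in tumor (median 784). Its log2 fold change of 3.31 (SE 0.32, FDR = 0.00195 in edgeR) was the largest of the 40 genes, and its smallest difference in any dog was 2.26, in dog A. The other called genes with values apart in the tissues were GTSE1 (2.86), NEK2 (2.86), DLGAP5 (3.02), TPX2 (2.56), TACC3 (2.49), AURKA (2.31), CKAP2L (2.20) and KIF2C (1.94). AURKA is the kinase that builds spindle poles and TPX2 its activator, NEK2 splits the centrosomes, and KIF2C takes tubulin off microtubule ends. These differences were positive in all 7 dogs.

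CKAP2 and HMMR were the 2 genes that missed the threshold. CKAP2 (ENSCAFG00000005898), a microtubule-stabilizing protein, had 188 to 309 normalized counts in bone (median 214) and 175 in the tumor of dog A to 1408 in that of dog F (median 586), a log2 fold change of 1.08 (SE 0.33, FDR = 0.0998 in edgeR). The tumor of dog A was below its own bone (214), and the tumor of dog G (261) lay within the range of bone. HMMR (ENSCAFG00000017192), which focuses spindle poles, had 80.6 to 149 in bone (median 112) and 105 to 1018 in tumor (median 357), a log2 fold change of 1.41 (SE 0.41, FDR = 0.0919 in edgeR). The tumors of dogs A (110) and E (105) were below their own bones, and the other 5 tumors were above every bone. Both genes were called higher with the DESeq2 Wald test (adjusted p = 0.00879 for CKAP2 and 0.00416 for HMMR). The study used that test, so these calls are not independent of the symbol matching.

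Among the called spindle genes, NUSAP1, KIF11 and JPT1 overlapped. NUSAP1 (ENSCAFG00000009538), which bundles microtubules near chromosomes, had 250 to 516 normalized counts in bone (median 319) and 461 to 1599 in tumor (median 652), a log2 fold change of 1.14 (SE 0.27, FDR = 0.048 in edgeR). Tumors A and E lay below the highest bone, that of dog E. The call was lost when any single dog other than E was left out. KIF11 (ENSCAFG00000007497), the motor that pushes the poles apart, had 54.5 to 201 in bone (median 141) and 199 to 4097 in tumor (median 1063), a log2 fold change of 2.77 (SE 0.52, FDR = 0.0177 in edgeR). In dog A bone (201) and tumor (199) were nearly equal, while the other 6 tumors were between 336 and 4097 and above every bone. The call was lost without dog B, C, D or G (highest FDR 0.0582). JPT1 (ENSCAFG00000004722) had 276 to 915 in bone (median 372) and 713 to 2023 in tumor (median 1217), a log2 fold change of 1.63 (SE 0.35, FDR = 0.0321 in edgeR). Bone E (915) exceeded the tumors of dogs D (713) and E (795), and the remaining bones were at 413 or less. The call was lost without any dog other than D or E (highest FDR 0.0841).

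TTK and PIMREG overlapped through a single tumor each. TTK (ENSCAFG00000002842) had 14.2 to 70.3 normalized counts in bone (median 45.1) and 65.8 to 435 in tumor (median 257), with an FDR of 0.0262 in edgeR (SE 0.48). The tumor of dog A (65.8) was below its own bone (70.3), and every other tumor was above every bone. The call was lost without dog B, C, D, F or G (highest FDR 0.0815). PIMREG (ENSCAFG00000015464), a mitotic regulator outside the other classes, had 45.1 to 156 in bone (median 83.7) and 111 to 1358 in tumor (median 566), a log2 fold change of 2.60 (SE 0.46, FDR = 0.0135 in edgeR). Here the low tumor was that of dog D (111), and dogs A and E, low in most genes, had 566 and 571.

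The 4 cytokinesis genes were called higher, with a median log2 fold change of 2.63, and none overlapped. IQGAP3 (ENSCAFG00000016616), a scaffold protein that binds small GTPases, had 47.0 to 121 normalized counts in bone (median 97.9) and 411 to 1487 in tumor (median 663), a log2 fold change of 3.02 (SE 0.31, FDR = 0.00205 in edgeR). ECT2 (ENSCAFG00000015455), the exchange factor that activates RhoA at the division furrow, had 54.5 to 131 in bone (median 99.2) and 161 in the tumor of dog A to 2930 in that of dog F (median 654), a log2 fold change of 2.57 (SE 0.48, FDR = 0.018 in edgeR). The tumors of ECT2 thus spanned 18.2-fold and its bones 2.40-fold. Its call was lost without dog B, C or G (highest FDR 0.0538). KIF23, the motor of the central spindle, rose by 2.65 and the furrow scaffold anillin (ANLN) by 2.62. ANLN was among the few genes highest in a tumor other than F, with 2959 normalized counts in tumor C and 1692 in tumor F.

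**Figure D2:**
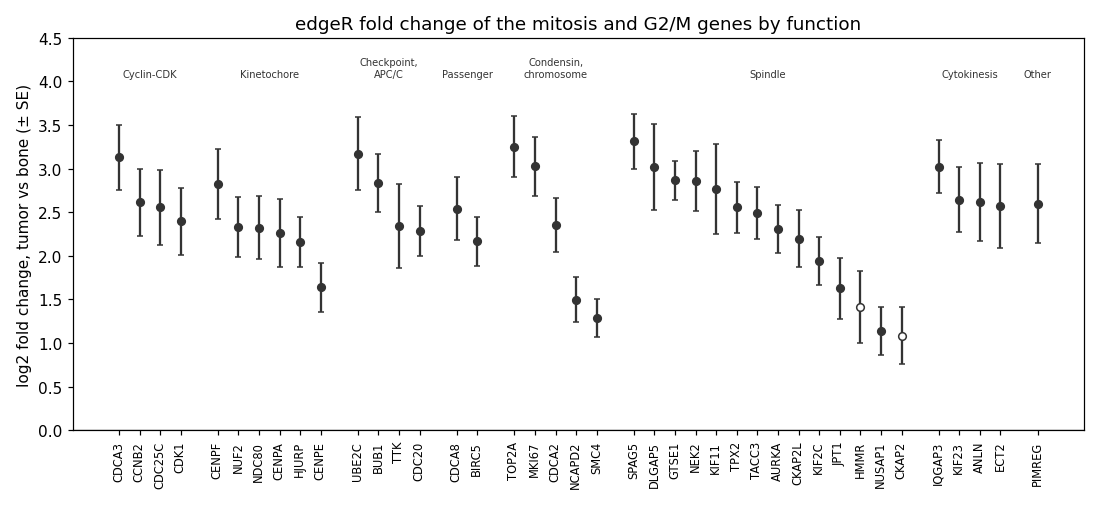
Log2 fold change of tumor relative to bone with its SE from the edgeR test with the dog in the model (7 dogs), for the 40 genes by class of function. Filled points were called at an FDR under 0.05, and the open points are HMMR and CKAP2. The smallest fold changes stood in the condensin and spindle classes.

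**Figure D3:**
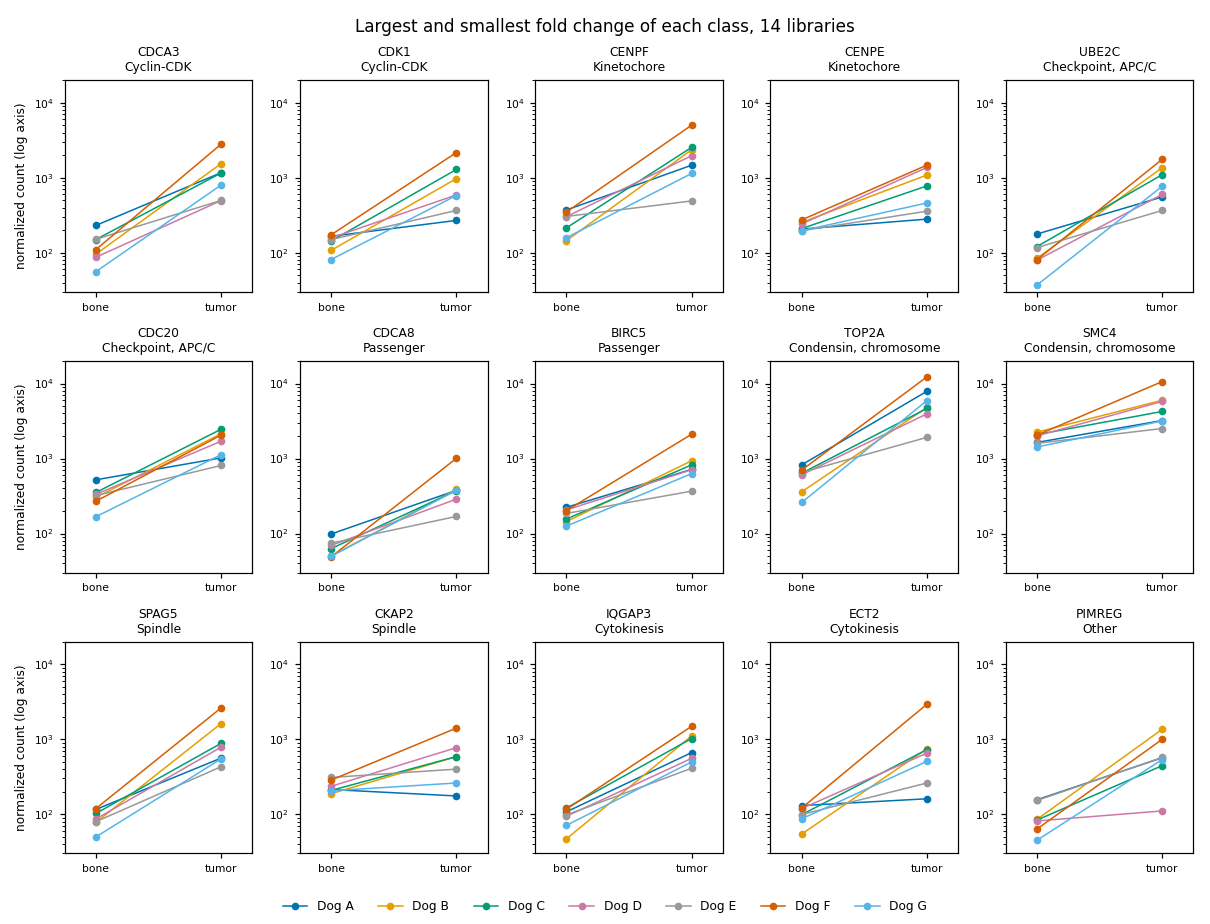
Normalized counts on a log axis in the bone and the tumor of each dog, joined by a line per dog, for the genes with the largest and the smallest fold change of each class. Tumor F is the top point in most panels, and the line of dog A rises less for ECT2 and CENPE than for TOP2A.

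The size of the rise differed between the dogs. The median difference over the 40 genes corresponded to 2.46-fold in dog A, 8.34-fold in B, 6.91-fold in C, 5.16-fold in D, 2.55-fold in E, 12.5-fold in F and 6.77-fold in G. More than 2-fold differences were found for 40 genes in dogs B, C and F, 37 in D and G, 29 in E and 24 in A. Over all genes kept by the expression filter (15566), the median difference was within 0.05 of 0 on the log2 scale in every dog. In dog A the bone was the highest of the 7 bones for 22 of the 40 genes and the tumor the lowest tumor for 10. In dog E the tumor was the lowest for 25 genes, while its bone was the highest for 4.

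The tumor of dog F was the highest of the 7 tumors for 34 genes, that of dog B for 3 and that of dog C for 3. The common level of a library was taken as the median, over the 40 genes, of its deviation from the median of the gene within the tissue, on log2(normalized count + 1). In tumor it was 1.34 in F, 0.41 in B, 0.35 in C, 0.00 in D, -0.45 in G, -0.51 in A and -1.07 in E, a span of 5.31-fold. In bone it ran from -0.64 in G to 0.34 in A, a span of 1.97-fold. With a single library for each tissue of a dog, the order of neighbours such as B and C, or G and A, has no error to be judged against.

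The classes did not rank the dogs alike. In dog A the median fold change was 1.66-fold for the cytokinesis genes, 1.99-fold for the kinetochore genes and 3.09-fold for the condensin and chromosome genes. In dog F the same classes stood at 14.3-fold, 7.75-fold and 8.42-fold, and in dog B at 12.8-fold, 7.66-fold and 4.75-fold. In dog E they were between 2.09-fold and 2.94-fold. The differences between classes within a dog were not tested, since each class has 1 to 14 genes of the same libraries.

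Markers of other cells also differed between the libraries that stood apart. The summed level of 2 of 8 osteoblast markers with an identifier (BGLAP and SPP1) was 2000 to 4815 CPM (counts scaled to a common library total) in bone and 124 to 1448 CPM in tumor, with tumor F the lowest and tumor E the highest. The tumors between these ends did not follow an inverse order, since tumors G (231 CPM) and A (347 CPM) were below tumors C (705 CPM), D (886 CPM) and B (955 CPM). The ends of the sum were those of SPP1, whereas BGLAP was lowest in tumor G (1023 normalized counts) and highest in tumor C (8524). For 6 of 8 osteoclast markers (ACP5, CTSK, CALCR, OCSTAMP, ATP6V0D2 and MMP9) the sum was 4194 to 18733 CPM in bone, highest in dog A, and 221 CPM in tumor F to 21559 CPM in tumor D. MPO, the only 1 of 5 neutrophil precursor markers with an identifier, had 6.39 CPM in bone F and 4.39 CPM in bone A, against 0.159 to 0.544 CPM in the other 5 bones, and 13.3 CPM in tumor F against 0.446 to 4.44 CPM in the other tumors. Bones A and F were also the highest bones for 22 and for 9 of the 40 genes. EPB42, the only erythroid marker with an identifier, was lowest in bone A (0.678 CPM) and highest in bone F (1.68 CPM). The study states that marrow was removed from the bone before extraction. CALCR was at 0 in tumor A, and none of the other osteoclast, osteoblast and MPO values named here was at 0. Their part in the levels of the mitotic genes was not tested.

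The sum of 5 of 6 osteocyte markers was 273 to 4649 CPM in bone and 3.90 to 467 CPM in tumor, and that of 5 of 6 adipocyte markers was 465 to 2903 CPM and 49.8 to 219 CPM. In edgeR all 5 adipocyte genes and 2 of 2 osteoblast genes were called lower in tumor. So were 2 of 5 osteocyte, 1 of 6 osteoclast and 1 of 2 endothelial genes. Of all genes 2.14% were called lower in edgeR, and the median log2 fold change of the genes with a symbol was -0.80. The DESeq2 Wald test called every osteocyte, osteoclast and endothelial gene with an identifier lower (highest adjusted p = 0.0384, for ATP6V0D2), beside 2033 of all genes. The study used that test, so these calls are not independent of the symbol matching. Of the endothelial markers 2 of 6 and of the erythroid markers 1 of 6 had an identifier, with sums of 32.5 to 75.5 and 0.209 to 0.635 CPM in tumor and 151 to 546 and 0.678 to 1.68 CPM in bone. FGF23, an osteocyte hormone, was at 0 in tumors C, D and F. No macrophage or T cell marker had an identifier. The part of these cells in the result was not tested.

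Within the tumor of dog A the genes did not move as a block. After the median of each gene and the common level of each tumor were removed, KIF11 was at -1.90, ECT2 at -1.51, TTK at -1.44, ANLN at -1.23, CKAP2 at -1.22 and HMMR at -1.19 on the log2 scale, while TOP2A was at 1.23. The SD of these departures over the 40 genes was 0.694 in tumor A and 0.357 to 0.508 in the other 6 tumors. In all, 7 of the 40 genes were more than 1 below the common level in tumor A, against 0 to 3 in each other tumor. The RNA of this tumor was among the least intact, and the part of RNA integrity in these departures was not tested. Without dog A, 35 of the 40 genes had no overlap between tumor and bone, against 33 with all dogs and 33 without dog F. Leaving out a dog can only keep or raise such a count. The share of all genes without dog A was not computed, so the change is not read as a result.

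Single genes departed in other tumors too. PIMREG was at -2.34 and CDCA3 at -1.22 in tumor D, CDC25C was at 1.43 in tumor B and ANLN at 1.18 in tumor C. In tumor F, the tumor with the highest common level, KIF2C was at -1.23, so that its normalized count of 442 was close to those of tumors B (493), C (445) and D (410). These values come from 1 library each and have no error.

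**Figure D4:**
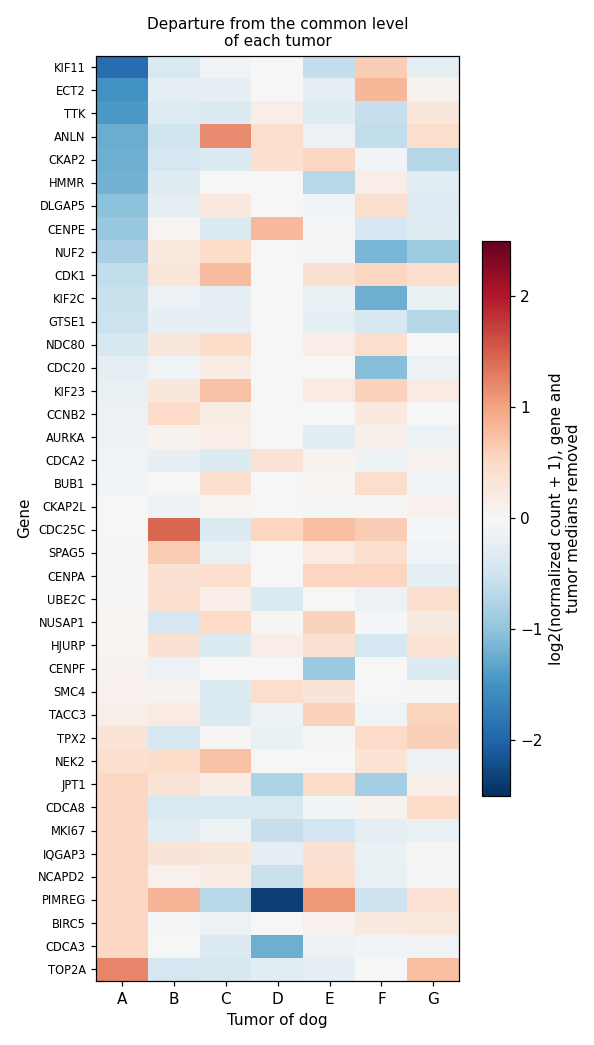
Departure of each gene in each tumor from the common level of that tumor, on log2(normalized count + 1), after the median of the gene over the 7 tumors was removed. Blue is lower and red higher, and genes are ordered by tumor A, whose column runs from KIF11 at -1.90 to TOP2A at 1.23. The lowest single value is that of PIMREG in tumor D (-2.34).

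Tumors differed more among themselves than bones did. The SD of log2 CPM over 7 dogs was larger in tumor for 39 of the 40 genes, with HJURP the exception, but the same was true of 84.9% of the 15566 genes kept by the filter. The median SD of the 40 genes was 0.456 in bone and 0.931 in tumor, beside 0.362 and 0.618 over all genes kept. The highest tumor exceeded the lowest by 2.84-fold (JPT1) to 20.6-fold (KIF11), with a median of 6.02-fold, and the highest bone exceeded the lowest by 1.38-fold to 4.94-fold, with a median of 2.46-fold. When absolute deviations from the tissue median were compared with limma, 0 of the 40 genes and 0 of all genes kept (0%) passed an FDR of 0.05, and the lowest FDR among the 40 was 0.576. At an unadjusted p under 0.05 there were 5 of the 40 genes (CENPE, NUF2, AURKA, NCAPD2 and HMMR) and 7.95% of all genes. That count was 13 without dog D or without dog G, 13 with deviations from the tissue mean and 15 on variance-stabilized counts. A larger spread of these genes among tumors was thus not shown gene by gene with 7 dogs.

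**Figure D5:**
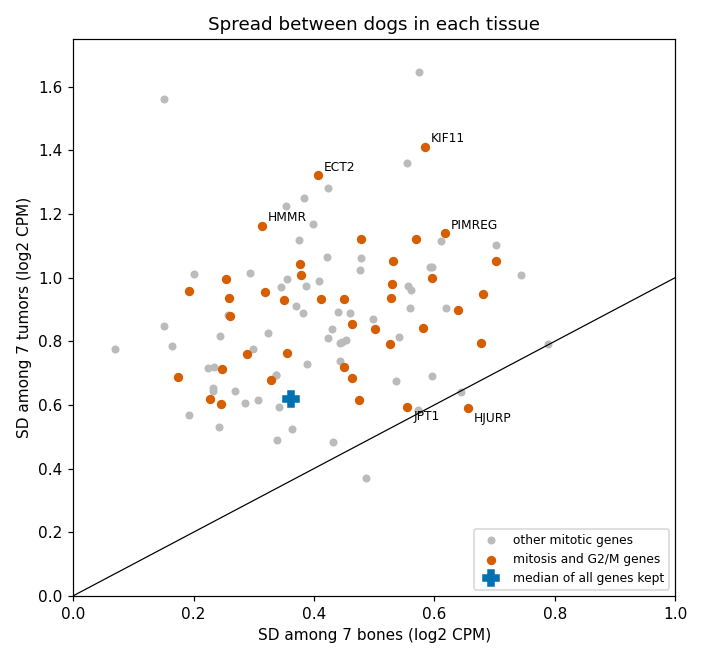
SD of log2 CPM over the 7 bones and over the 7 tumors for the 40 genes (orange) and 67 other mitotic genes (grey), with the line of equal SD and the median of all genes kept (cross, 0.362 and 0.618). HJURP is the only orange point below the line, and KIF11 is the highest orange point.

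Other mitotic genes, listed by function apart from these 40, had the same direction. Of 89 listed, 67 had an identifier, and 59 of these were called higher and 0 lower, at log2 fold changes of 0.93 to 2.98 (median 2.14), where 1.76% of all genes and 20.3% of the genes with a symbol were called higher. These genes carry the same selection through the symbol tables. Of the kinetochore genes 18 of 22 were called, with KNL1, the platform for checkpoint proteins, at 2.98 and CENPT at 2.96, while the checkpoint protein BUB3 had 1.02 (SE 0.27, FDR = 0.0696 in edgeR). Of the spindle and central spindle genes 17 of 19 were called, with the kinesins KIF14 at 2.96 and KIF20A at 2.81. The kinesin KIF18A had 1.30 (SE 0.38, FDR = 0.0944 in edgeR), the smallest value of that group.

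Of the cyclin and CDK group 11 of 12 were called, with cyclin B1 (CCNB1) at 2.62 and PKMYT1, an inhibitory kinase of CDK1, at 2.54. CDK2, which acts mainly before mitosis, had the smallest value, 0.96. All 8 passenger and cohesin genes were called, with the cohesin protectors SGO1 at 2.78 and CDCA5 at 2.76 and the cohesin ring subunit SMC1A at 1.17. Of the condensin group 5 of 6 were called, from NCAPG at 2.78 and the kinesin KIF22 at 2.19 to the condensin II subunit NCAPG2 at 0.93. Tumor F was the highest tumor for 58 of the 67 genes. Tumor and bone overlapped for 17 of them, 8 through tumor A alone. With all dogs 50 had no overlap, where 1.49% of all genes and 15.1% of those with a symbol had none. The count was 59 without dog A and 51 without dog F, for which the share of all genes was not computed.

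Genes that govern entry into the cycle were less covered. Of 18 listed, 5 had an identifier, and their fold changes differed in sign by role. The kinases CDK4 and CDK6 and cyclin D3 had positive values, and the inhibitory RBL2 and CDKN1B negative ones. RBL2 (ENSCAFG00000009654), the pocket protein p130 that holds cell cycle genes silent in resting cells, had 1453 to 2280 normalized counts in bone (median 1841) and 499 to 948 in tumor (median 746). All 7 tumors lay below all 7 bones, and the log2 fold change was -1.30 (SE 0.17, FDR = 0.00486 in edgeR), again beside 2.14% of all genes called lower. CDK4 (ENSCAFG00000000280), the kinase of early G1, had 1987 to 4247 in bone (median 2737) and 4158 to 14481 in tumor (median 6604), a log2 fold change of 1.14 (SE 0.25, FDR = 0.0337 in edgeR). Tumor B was the highest and tumor D lay within the range of bone. This call was lost whichever single dog was left out (highest FDR 0.0878).

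The other 3 were not called in edgeR. CDK6 had a log2 fold change of 1.05 (FDR = 0.0708) and cyclin D3 (CCND3) of 0.90 (FDR = 0.0746) in edgeR. The CDK inhibitor p27 (CDKN1B) had -1.01 (FDR = 0.214 in edgeR), and in 2 of 7 dogs its tumor was above the bone. With the DESeq2 Wald test CDK6 and CCND3 were called higher (adjusted p = 0.00147 and 0.00546) and CDKN1B lower (adjusted p = 0.0472). These DESeq2 calls are not independent of the symbol matching either. On the genes kept by the expression filter, edgeR called CDK6 (FDR = 0.0368) and CCND3 (FDR = 0.046) higher.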

How the data were processed

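Polyadenylated RNA of the bone and the tumor of 7 dogs was sequenced. The authors mapped the reads to CanFam3.1 with HISAT2 2.2.1 and counted them per Ensembl gene with StringTie 1.3.3, and deposited raw counts of 30951 genes without normalization. The strand setting is not given in the sources used here.

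Tumor and bone were compared on the 27655 genes with at least 1 count by edgeR 4.0.16 (R 4.3.3), with TMM normalization and dog and tissue in the design, and the SE was derived from the fold change and the F statistic. The 2 tissues of an animal formed a pair. The deviations of the libraries from their tissue means correlated within dogs at 0.073 to 0.164, with 6 of 7 dogs over 0.1. Normalized counts used DESeq2 1.42.0 size factors, and individual differences a pseudocount of 1. Spread was compared by limma 3.58.1 on absolute deviations of log2 CPM (prior count 2). The scripts were tested on simulated data, in which the comparison of spread recovered few changed genes.

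The genes and lists were chosen with earlier results of these data known. Per class, the genes with the largest and the smallest fold change, those not called and those that overlap were given in full, and for the other lists the 2 largest and the smallest fold changes and any gene called lower. The 14 genes without an identifier and promoter motifs were not analysed, and 2 cell type markers are not reported here.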

Additional observations from a re-analysis of the deposited data

Results flagged for a closer look

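In each of 120 groups of 7 values (bone, tumor and difference for 40 genes) the gap between the most extreme dog and its neighbour was compared with the range of the group on log2(normalized count + 1), and 2 groups passed Dixon's critical value for 7 values. Chance alone flags about 1 in 20 unrelated groups. These 120 groups share libraries and values, so 2 of 120 cannot be judged against that rate. For TTK, bone G was the lowest at 14.2 normalized counts, and the next bone, B, was at 37.4. For JPT1, bone E was the highest at 915 normalized counts, and the next bone, A, was at 413.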

How the results depend on the processing

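No fold change of the 40 genes turned its direction under any alternative. Of 520 values, 491 kept their side of the threshold, 23 lost it (TTK, NUSAP1, KIF11, JPT1 and ECT2, each with 1 dog left out) and 6 gained it (CKAP2 and HMMR with DESeq2, limma voom and no replicate block). Without the replicate block, 40 of the 40 genes were called higher, and CKAP2 and HMMR had an FDR of 0.042 and 0.0277. The count was also 40 with limma voom, and it was 38 with RLE factors, upper quartile factors, filterByExpr, or a base mean over 10 and a fold over 2. Each of the 104 class medians moved by less than the SD of that median between the 7 dogs. The counts over all genes moved more. Called higher were 1729 genes with DESeq2, 842 with filterByExpr, 746 with limma voom, 919 without the replicate block and 243 (without dog B) to 360 with 1 dog left out, and called lower were 2033 with DESeq2 and 343 (without dog B) to 453 with 1 dog left out. Of the other mitotic genes 40 to 58 were called higher with 1 dog left out. Of the 5 genes of entry into the cycle, 3 were higher with DESeq2 and with filterByExpr, 2 with limma voom and without the replicate block and 0 to 1 with 1 dog left out, and 2 were lower with DESeq2. The cause of these differences was not tested. The number of genes with more spread among tumors was 0 of 40 at an FDR of 0.05 in every alternative, and at an unadjusted p under 0.05 in limma it was 13 with deviations from the mean, 15 on variance-stabilized counts and 4 to 13 with 1 dog left out. The 34 genes higher in all 7 dogs stayed 34 on TMM-scaled CPM and on variance-stabilized counts, and those without overlap were 32 and 33. The alternatives for the genes without an identifier were not run.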

Other observations

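Among the 67 other mitotic genes, the tumor of dog A also held genes far below its common level. After the median of each gene and the common level of each tumor were removed, KIF14 was at -1.96, CEP55 at -1.92, KIF18A at -1.76, FBXO5 at -1.63, KNL1 at -1.59 and SPC25 at -1.49 on the log2 scale, and 9 of the 67 genes were more than 1 below the common level and 0 more than 1 above it. These genes were chosen after their values were seen. CEP55 acts in the final cut between daughter cells, and FBXO5 inhibits the APC/C. The SD of the departures over the 67 genes was 0.708 in tumor A and 0.346 to 0.566 in the other tumors. In tumor G, 7 genes were more than 1 below, led by TROAP at -1.59 and STIL at -1.47, whereas TROAP was at 1.95 in tumor B. Each value comes from 1 library.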
